A study of Homo sapiens with 60 samples.

Results

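A water extract of cinnamon bark (Cinnamomi Cortex) was compared at its highest dose, 500 µg/mL, with its lowest dose, 20 µg/mL, after 24 h on SW1783 cells. The 6 libraries of the comparison, 3 at each dose, were chosen by their dose labels out of 60 in all. SW1783 is an established line from a human astrocytoma, grown here in L-15 medium with fetal bovine serum. The dried bark was extracted in hot water and the extract freeze-dried. All 6 libraries share the extract, the exposure time and the first number of their sample names, 6, called set 6 here, and differ in their labels only by dose. A further 3 libraries at 100 µg/mL placed the intermediate dose between them, and 6 libraries of an Astragali Radix water extract, 3 at 500 µg/mL and 3 at 20 µg/mL in the same set, served as the comparison with another extract. No vehicle library enters, so every value is a difference between doses and none is a difference from untreated cells.

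Cinnamon bark is best known for cinnamaldehyde, an electrophile that reacts with thiol groups; its amount in these extracts is not given in the labels. Electrophiles modify cysteines of KEAP1, which otherwise delivers the transcription factor NRF2 to the proteasome, and stabilised NRF2 then drives genes for glutathione synthesis, quinone and aldehyde reduction, NADPH supply and heme and iron handling. In astrocytes this programme is known for supplying glutathione precursors to neurons. Separate pathways act in the same cells. MTF1 reads free zinc and drives metallothioneins, SREBP2 is controlled by membrane cholesterol and HIF by oxygen, and BMP receptors signal through SMADs to the ID genes.

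Total expected counts were 23697711 to 26426701 in the high-dose libraries and 23882045 to 26801574 in the low-dose libraries, within the 20604792 to 29609799 of the 60 libraries. Mitochondrially encoded genes took 5.342 to 7.283% of counts at 500 µg/mL and 7.327 to 8.344% at 20 µg/mL, so the groups did not overlap in this share. The summed levels of the 13 encoded subunits did overlap, at 43700 to 62700 CPM and 58300 to 68200 CPM. Of the 13, 2 were called lower. MT-ATP6 lost its call without high-dose library 1 or low-dose library 1 or 3, and MT-ND3 without high-dose library 1 or low-dose library 1 or 2. Of 12 astrocyte markers, 5 were measured well enough to be tested, among them SLC1A3, GJA1, SOX9 and CLU; GFAP, S100B, AQP4, ALDH1L1, SLC1A2 and NDRG2 stayed at or below 0.304 CPM (the count scaled to library size) in the set and FABP7 at 0, so most defining transcripts of mature astrocytes were near 0. Markers of other cell types moved with the dose in part. The 9 fibroblast and smooth muscle markers summed to 9020 to 9210 CPM at 500 µg/mL and 9620 to 10800 CPM at 20 µg/mL, with ACTA2 and COL1A1 called lower. The neuron markers, 4 tested of 6, summed to 114 to 123 CPM at 500 µg/mL and 137 to 147 CPM at 20 µg/mL, and the microglia and leukocyte markers, 3 of 6, to 205 to 235 CPM at 500 µg/mL and 157 to 198 CPM at 20 µg/mL, while RBFOX3, STMN2, ITGAM and P2RY12 stayed at or below 0.334 CPM and AIF1 at 0. Of those 3, with a median log2 fold change of -0.40, PTPRC fell by 1.41 and CD68 was called higher (0.40), a call lost without high-dose library 2 or low-dose library 2 or 3. The part of these markers in the results was not tested. No label states that the 3 libraries of a dose are separate cultures, and the p-values then cover only the spread among these libraries. In bulk RNA, fewer cells of a kind and less RNA per cell cannot be told apart.

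Raising the dose changed the transcriptome widely. In edgeR's quasi-likelihood test with Benjamini-Hochberg adjustment, 4950 of 16630 genes (29.8%) passed an adjusted p of 0.05 between 500 and 20 µg/mL, 2314 higher (13.9%) and 2636 lower (15.9%). Changes of at least 2-fold were more often downward, with 122 genes higher and 328 lower. The libraries of both doses did not overlap for 7119 genes (42.8%). The median log2 fold change over all genes was -0.006. Gene lists are described below by their called members and their median, to be read beside these shares. Where a list is said to have none in one direction, none passed there at an unadjusted p of 0.05 in edgeR's test or at an adjusted p of 0.05 in DESeq2's Wald test.

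**Figure D1:**
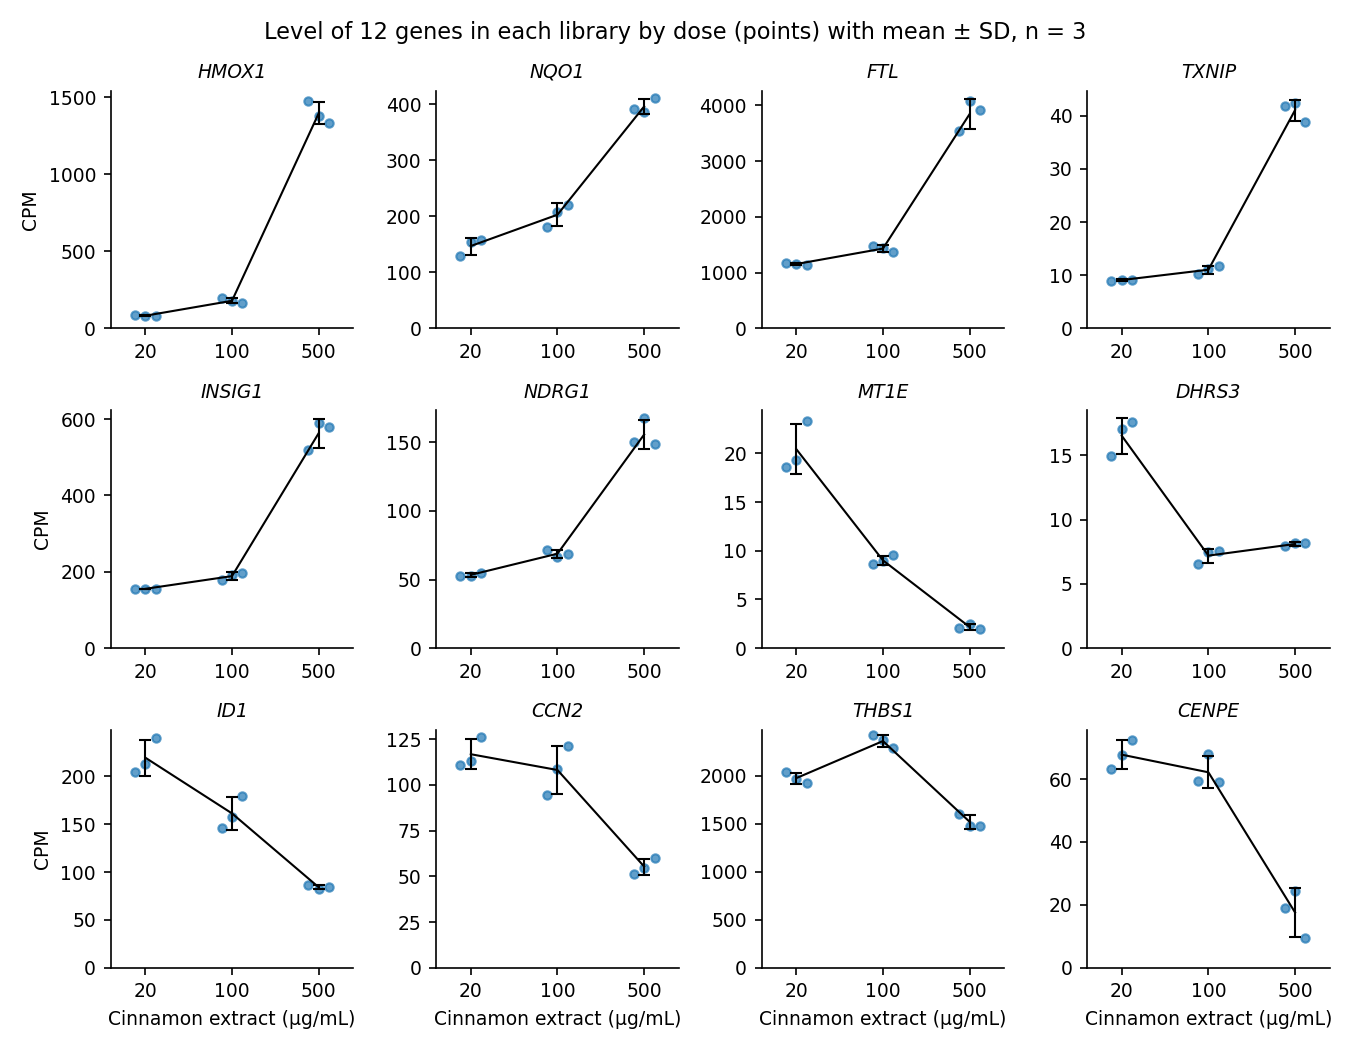
Normalised level (CPM, linear axis from 0) of 12 genes at 20, 100 and 500 µg/mL of the cinnamon bark extract, with 1 point per library, 3 libraries per dose, a line through the means and bars of 1 SD. HMOX1 reached 1333 to 1473 CPM at 500 µg/mL against 79.5 to 86.9 CPM at 20 µg/mL, DHRS3 had already reached its low level at 100 µg/mL, and THBS1 was highest at 100 µg/mL.

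Most NRF2 targets rose. Of the 30 members, all of them tested, 27 rose and 1, ABCC3, fell, and the list's median log2 fold change was 0.86 against -0.006 over all genes. The member with the greatest change was HMOX1, heme oxygenase 1, which opens the heme ring and frees iron. HMOX1 (22, 35380361 to 35394214, plus strand, GRCh38) had 1473, 1376 and 1333 CPM at 500 µg/mL, against 86.9, 79.5 and 79.7 CPM at 20 µg/mL. Every high-dose library lay far above every low-dose library, and the difference was 4.09 ± 0.08 (log2, SE; 17.0-fold, edgeR adjusted p = 1.06e-18). This was the largest log2 rise among genes with a mean of at least 5 CPM and no overlap between groups.

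NQO1, which reduces quinones without a radical step, had 391, 386 and 410 CPM at 500 µg/mL, against 130, 154 and 158 CPM at 20 µg/mL (log2 1.43 ± 0.09, edgeR adjusted p = 9.25e-10). AKR1C1, an aldo-keto reductase, had 110, 105 and 108 CPM at 500 µg/mL, against 21.7, 24.2 and 25.0 CPM at 20 µg/mL (log2 2.19 ± 0.06, edgeR adjusted p = 1.24e-15). Neither gene's groups overlapped. AKR1C1, AKR1C2 and AKR1C3 are close paralogs that can share reads, and their log2 fold changes of 2.19, 1.38 and 1.27 are uncertain to that extent.

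The genes of glutathione and thioredoxin supply rose by less. GCLM, the modifier subunit of glutamate-cysteine ligase, had 178, 155 and 173 CPM at 500 µg/mL, against 83.9, 91.1 and 90.2 CPM at 20 µg/mL (log2 0.93 ± 0.05, edgeR adjusted p = 6.64e-11). TXNRD1, which reduces thioredoxin, had 565, 512 and 516 CPM at 500 µg/mL, against 240, 267 and 272 CPM at 20 µg/mL (log2 1.03 ± 0.08, edgeR adjusted p = 2.87e-09). Both pairs of groups were apart. SLC7A11, the cystine importer, rose by 1.11 and GSR, glutathione reductase, by 0.64 on the log2 scale. In the wider list of glutathione and peroxide removal, 12 of 22 members rose and 2 fell, the peroxidases GPX1 (-0.27) and GPX8 (-0.20), with a median of 0.28. Its members GCLC, GCLM, GSR, TXN, TXNRD1, PRDX1 and SLC7A11 also stand in the NRF2 list. The GPX8 call was lost without high-dose library 1 (edgeR adjusted p = 0.0964). ABCC3, an organic anion exporter, differed by -0.21 ± 0.05 (edgeR adjusted p = 0.00427), and the 2 members of the NRF2 list that did not pass were ABCC2 and CBR3.

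Promoters of NRF2-list genes are shown because the antioxidant response element, to which NRF2 binds, can be read in their letters. RefSeq promoters on GRCh38.p14, from 250 bases before to 50 after the start, were found for 21 members, and 5 (23.8%) held TGACNNNGC on either strand, against 13.6% of 27305 promoters. The same letters stood in 3 of 7 promoters of the metallothionein and zinc transport list (42.9%) and 4 of 18 of the glycolysis list (22.2%). The matches stand in capitals in the promoters of GCLM (chr1:93909381-93909680, minus strand) and TXNRD1 (chr12:104215529-104215828, plus strand), written 5′ to 3′ in the gene's direction.
GCLM: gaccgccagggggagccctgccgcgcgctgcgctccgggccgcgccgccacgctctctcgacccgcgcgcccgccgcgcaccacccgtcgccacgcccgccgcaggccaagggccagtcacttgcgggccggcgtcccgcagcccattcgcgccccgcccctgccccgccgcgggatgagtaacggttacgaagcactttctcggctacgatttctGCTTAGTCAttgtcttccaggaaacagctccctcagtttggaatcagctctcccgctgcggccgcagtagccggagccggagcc
TXNRD1: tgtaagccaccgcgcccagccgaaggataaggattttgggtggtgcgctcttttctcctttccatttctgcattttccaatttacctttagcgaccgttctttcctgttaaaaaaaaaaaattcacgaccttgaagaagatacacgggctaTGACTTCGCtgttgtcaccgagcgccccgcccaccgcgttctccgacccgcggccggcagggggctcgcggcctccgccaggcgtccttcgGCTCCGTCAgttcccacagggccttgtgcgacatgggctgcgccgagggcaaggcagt
With the start base counted as 0, the GCLM match lay at -34 to -26 on the strand opposite to the gene, and the TXNRD1 matches at -99 to -91 on the gene's strand and at -8 to 0 on the opposite one. ME1, PGD and PIR held the other matches. A match describes the letters in this window and shows neither binding nor a cause, and HMOX1, SLC7A11 and FTH1 had no entry.

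Heme and iron handling genes were also mostly higher, with 13 of 18 tested members up, 1 down and a median of 0.32. This list is not separate from the NRF2 list: both hold HMOX1, FTL, FTH1, SLC48A1 and BLVRB. FTL, the ferritin light chain that stores iron, had 3538, 4069 and 3919 CPM at 500 µg/mL, against 1177, 1151 and 1133 CPM at 20 µg/mL (log2 1.74 ± 0.06, edgeR adjusted p = 3.32e-14). FTH1, the heavy chain, had 4507, 4954 and 4847 CPM at 500 µg/mL, against 1657, 1549 and 1659 CPM at 20 µg/mL (log2 1.56 ± 0.06). The groups were apart for both chains, which have many processed pseudogenes that can share reads. ALAS1, the first enzyme of heme synthesis, rose by 1.03 and SLC48A1, a heme transporter, by 0.79, both on the log2 scale. IREB2, an iron-sensing RNA-binding protein, was the member that fell (-0.20), a call lost without high-dose library 1 or 2 or low-dose library 2 or 3 (edgeR adjusted p up to 0.173), and the transferrin receptor TFRC did not pass (0.12, edgeR adjusted p = 0.411).

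SQSTM1, the p62 autophagy receptor, which also binds KEAP1, had 1730, 1679 and 1603 CPM at 500 µg/mL, against 551, 560 and 579 CPM at 20 µg/mL (log2 1.57 ± 0.05, edgeR adjusted p = 1.57e-15). Around it, 6 of 14 autophagy genes rose and none fell, SQSTM1 included, among them MAP1LC3B, a membrane tag of autophagosomes, and WIPI1, a scaffold of their formation, both by 0.45. Lysosomal genes rose more widely, 23 of 29 with none lower and a median of 0.28. Their largest changes were NPC1, which exports cholesterol from the lysosome (0.83), NEU1, a sialidase (0.67), and CTSL, a cysteine protease (0.62).

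Metallothioneins moved the other way. These small cysteine-rich proteins bind zinc and copper, and 9 of the 12 listed metallothionein and zinc genes were tested, of which 5 fell and 1 rose. MT1E had 2.03, 2.47 and 2.01 CPM at 500 µg/mL, against 18.6, 19.3 and 23.4 CPM at 20 µg/mL. It was the largest fall among named genes (log2 -3.23 ± 0.15, 9.41-fold lower, edgeR adjusted p = 1.45e-12). MT2A had 138, 147 and 154 CPM at 500 µg/mL, against 386, 394 and 378 CPM at 20 µg/mL (log2 -1.40 ± 0.11, edgeR adjusted p = 2.26e-08). MT1X had 6.87, 6.96 and 8.49 CPM at 500 µg/mL, against 17.6, 19.2 and 18.6 CPM at 20 µg/mL (log2 -1.31 ± 0.11). No library of one dose overlapped the other for these 3 genes, which are paralogs that can share reads. SLC30A1, the plasma membrane zinc exporter, fell by 0.84, and SLC39A10, a zinc importer, rose by 1.00 (edgeR adjusted p = 9.1e-10). MTF1, the zinc sensor itself, did not pass (-0.03, edgeR adjusted p = 0.755).

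The promoters of MT2A (chr16:56608334-56608633, plus strand) and MT1X (chr16:56682220-56682519, plus strand) are shown for their metal response elements, the letters to which MTF1 binds. Capitals mark TGCNCNC on either strand, and no matches overlapped.
MT2A: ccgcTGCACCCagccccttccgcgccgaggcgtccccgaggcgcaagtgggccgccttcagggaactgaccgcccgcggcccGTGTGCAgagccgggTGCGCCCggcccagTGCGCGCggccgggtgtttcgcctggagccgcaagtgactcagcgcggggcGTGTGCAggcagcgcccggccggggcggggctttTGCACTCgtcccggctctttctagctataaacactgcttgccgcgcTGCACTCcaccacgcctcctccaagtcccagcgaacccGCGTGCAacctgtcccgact
MT1X: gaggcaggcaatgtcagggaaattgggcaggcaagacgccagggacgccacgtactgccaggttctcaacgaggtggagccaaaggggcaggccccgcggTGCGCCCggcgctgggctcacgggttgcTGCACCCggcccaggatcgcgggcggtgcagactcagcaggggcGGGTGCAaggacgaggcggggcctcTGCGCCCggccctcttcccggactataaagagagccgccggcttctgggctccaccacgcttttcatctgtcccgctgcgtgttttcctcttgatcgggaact
MT2A held 8 matches and MT1X 4. Of 7 promoters found for the list 6 (85.7%) held the motif, but so did 55.2% of all promoters. The share was 83.3% in the glycolysis list, 77.8% in the hypoxia list, 66.7% in the NRF2 list and 55.6% in the cholesterol list. MT1E had no entry.

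Genes of cholesterol synthesis and uptake rose almost throughout, 23 of 24 with none lower and a median of 0.61. INSIG1, which holds the SREBP escort protein in the endoplasmic reticulum, had 520, 591 and 578 CPM at 500 µg/mL, against 154, 156 and 155 CPM at 20 µg/mL (log2 1.86 ± 0.06, edgeR adjusted p = 3.52e-15). Its groups were apart. MSMO1 (1.08) and FDFT1 (0.94), enzymes of sterol and squalene synthesis, rose too. TM7SF2 was the member that did not pass. Of 11 genes of fatty acid synthesis 7 rose, led by the desaturases SCD (0.80) and FADS2 (0.60), while the regulator SREBF1 fell (-0.31 ± 0.06, edgeR adjusted p = 0.0011). PLIN2, a lipid droplet coat protein, had 194, 191 and 186 CPM at 500 µg/mL, against 56.5, 59.4 and 58.8 CPM at 20 µg/mL (log2 1.71 ± 0.06). The core sterol regulatory element TCACNCCAC stood in 1 of 18 cholesterol-list promoters (5.56%), against 1.15% of all promoters. It also stood in 1 of 18 promoters of the hypoxia list, 1 of 18 of the glycolysis list and 1 of 21 of the NRF2 list.

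Hypoxia targets and glycolytic enzymes rose with smaller medians. Of 23 hypoxia genes 19 rose and none fell (median 0.37), and of 18 glycolysis genes 14 rose and none fell (median 0.27). NDRG1, a differentiation-associated stress gene, had 150, 168 and 149 CPM at 500 µg/mL, against 52.6, 52.5 and 55.1 CPM at 20 µg/mL (log2 1.54 ± 0.07, edgeR adjusted p = 2.91e-13). ANGPTL4, a secreted inhibitor of lipoprotein lipase, had 65.5, 63.2 and 63.6 CPM at 500 µg/mL, against 18.6, 15.9 and 15.0 CPM at 20 µg/mL (log2 1.96 ± 0.12, edgeR adjusted p = 2.33e-10). The groups were apart for both. ALDOC (1.31) and ENO2 (1.09), isoforms of aldolase and enolase, led the glycolysis list, and SLC2A3 (0.95), a glucose transporter, rose as well. VEGFA, the angiogenic growth factor, rose by 0.20 (edgeR adjusted p = 0.00305). The letters ACGTG, the core of the hypoxia response element, stood in 10 of 18 hypoxia promoters (55.6%) and 8 of 18 glycolysis promoters (44.4%), against 21.6% of all promoters. TXNIP, an arrestin-fold protein that binds thioredoxin and curbs glucose uptake, had 41.9, 42.5 and 38.8 CPM at 500 µg/mL, against 8.96, 9.18 and 9.13 CPM at 20 µg/mL (log2 2.18 ± 0.08, edgeR adjusted p = 1.71e-14).

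Stress responses divided by kind. Targets of ATF4, the factor of the integrated stress response, rose in 19 of 24 cases with 1 lower and a median of 0.40. GDF15, a secreted stress hormone, had 13.4, 13.7 and 13.1 CPM at 500 µg/mL, against 3.61, 3.42 and 4.40 CPM at 20 µg/mL (log2 1.82 ± 0.12, edgeR adjusted p = 5.78e-10). DDIT3, which encodes CHOP, rose by 1.10 and TRIB3, a pseudokinase, by 0.99, while ATF4 mRNA itself did not pass (0.12, edgeR adjusted p = 0.0869). Heat shock genes moved down, 6 of 15 with none higher and a median of -0.12, or 4 to 5 with 1 library left out. HSPA8 (-0.19) lost its call without high-dose library 1, and DNAJB1 (-0.17) without high-dose library 2 or 3 or low-dose library 1. HSPH1 and SERPINH1, chaperones of the cytosol and of collagen, fell by 0.30 and 0.29, and the fall of HSPB1 by 0.41 was lost without high-dose or low-dose library 1 (edgeR adjusted p = 0.064 and 0.0879). Of 16 chaperones and unfolded-protein genes of the endoplasmic reticulum 3 rose, led by HERPUD1 (0.57), and 2 fell, HSP90B1 (-0.38) and SEL1L (-0.16), the second a call lost without high-dose library 1 or 2 or low-dose library 2. The median of this list was 0.0, and its share of calls was near the 29.8% of all genes. Of 19 p53 targets 6 rose and 1 fell. CDKN1A, the p21 inhibitor of cyclin-dependent kinases, had 41.5, 41.1 and 38.9 CPM at 500 µg/mL, against 20.0, 17.3 and 19.9 CPM at 20 µg/mL (log2 1.09 ± 0.08, edgeR adjusted p = 2.49e-09).

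**Figure D2:**
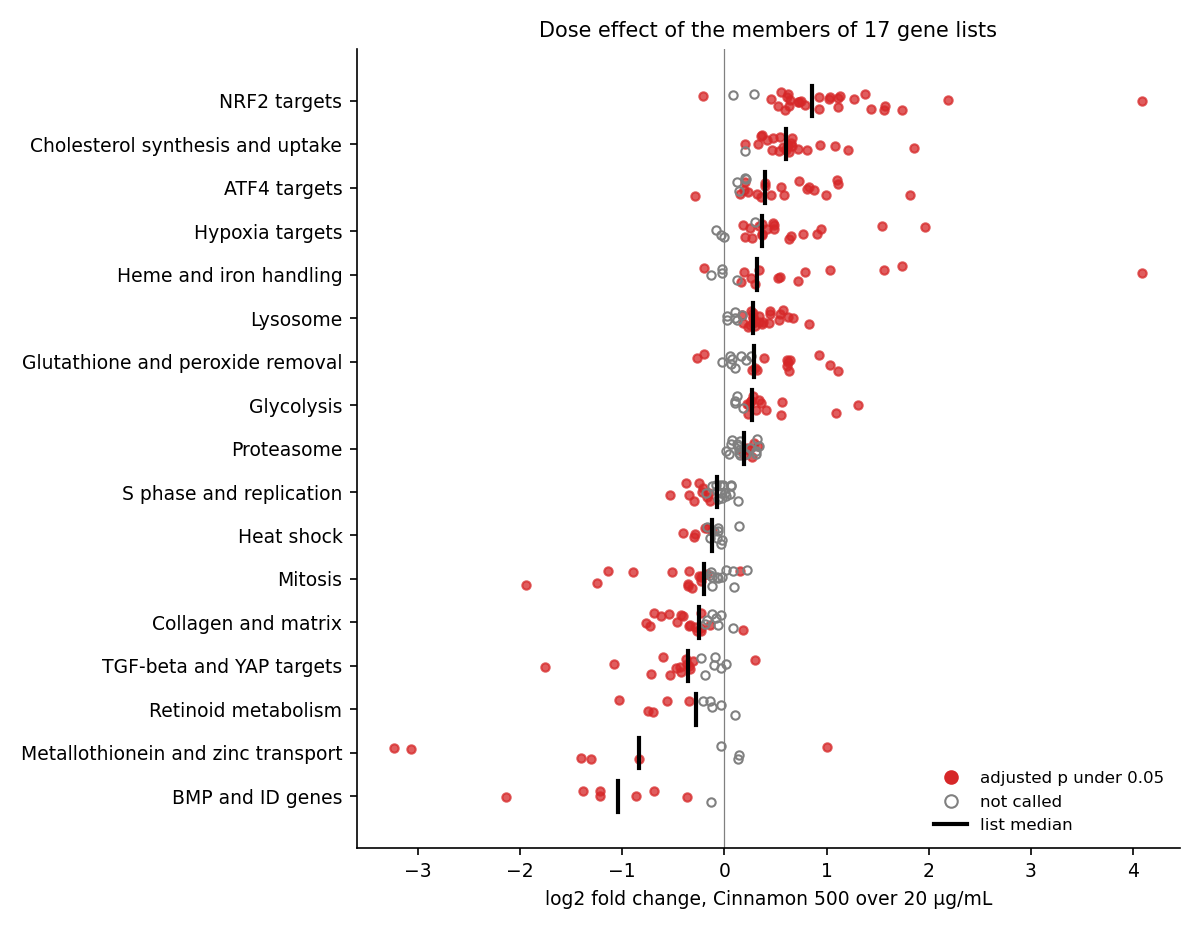
Log2 fold change, 500 over 20 µg/mL, of every tested member of 17 gene lists, 1 point per gene, with called members filled in red, others open, and the list median as a black bar. The median was 0.86 for NRF2 targets, 0.61 for cholesterol genes and -1.04 for BMP and ID genes, against -0.006 over all 16630 genes.

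Most of the BMP and ID genes fell. ID proteins bind and block helix-loop-helix factors that drive differentiation, and 7 of 8 members fell (median -1.04). ID1 had 86.2, 82.3 and 84.1 CPM at 500 µg/mL, against 205, 213 and 241 CPM at 20 µg/mL (log2 -1.38 ± 0.10, edgeR adjusted p = 7.78e-09), with no overlap. ID2, ID3 and ID4 fell by 1.22, 1.22 and 2.14, and the inhibitory SMAD6 by 0.87. BAMBI, a decoy receptor, did not pass (-0.13, edgeR adjusted p = 0.319).

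Targets of TGF-beta and of the mechanical sensor YAP fell in 13 of 20 cases with 1 higher and a median of -0.36. CCN2, a matricellular growth factor, had 51.4, 54.6 and 60.0 CPM at 500 µg/mL, against 111, 113 and 126 CPM at 20 µg/mL (log2 -1.08 ± 0.09, edgeR adjusted p = 6.05e-08). ANKRD1, a nuclear ankyrin-repeat protein, fell by 1.76 and ACTA2, smooth muscle actin, by 0.60. F3, tissue factor, was the member that rose (0.30). Collagen and matrix genes fell in 16 of 24 cases with 1 higher and a median of -0.25. The higher one, COL6A2 (0.18), lost its call without high-dose library 1 or 2 or low-dose library 2 or 3 (edgeR adjusted p up to 0.0835). COL8A1 (-0.73), COL5A1 (-0.69) and COL12A1 (-0.62) were among the largest falls. Proteases were divided, 4 higher and 4 lower of 14, with MMP14, a membrane collagenase, at 0.49 and PLAU, urokinase, at -0.76.

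Signals to inflammation and growth were mixed. Of 19 tested NF-kB targets 10 rose and 3 fell: IL1B, a cytokine, rose by 1.17 and TRAF1, a receptor adaptor, by 0.74, while the monocyte attractant CCL2 fell by 1.19. Interferon response genes gave 4 higher and 3 lower of 22, beside 29.8% called of all genes, and 2 called without high-dose library 1. Of 10 tested retinoid genes 5 fell and none rose, among them STRA6, the retinol receptor (-0.75), and RARB, a retinoic acid receptor (-0.70). Outside the lists, CYP24A1, the vitamin D hydroxylase, had 3.04, 2.89 and 3.98 CPM at 500 µg/mL, against 10.6, 11.5 and 13.4 CPM at 20 µg/mL (log2 -1.84 ± 0.11, edgeR adjusted p = 1.47e-10). KRT18, a simple-epithelial keratin, had 79.6, 72.9 and 73.7 CPM at 500 µg/mL, against 195, 183 and 188 CPM at 20 µg/mL (log2 -1.32 ± 0.06). KRT8 and KRT18 were the 2 epithelial markers tested of 5, EPCAM and CDH1 stayed at or below 0.123 CPM, and the list's summed level was 85.1 to 91.3 CPM at 500 µg/mL and 201 to 213 CPM at 20 µg/mL.

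A part of the cell-cycle genes fell. In the mitosis list 14 of 26 members fell and 1 rose (median -0.20), and in the S phase list 10 of 26 fell with none higher (median -0.07), or 6 without low-dose library 2 or 3. CENPE, a kinetochore motor, had 19.1, 24.4 and 9.33 CPM at 500 µg/mL, against 63.0, 67.8 and 72.4 CPM at 20 µg/mL (log2 -1.94 ± 0.22, edgeR adjusted p = 1.64e-05). High-dose library 3 was the lowest, and without it the difference was -1.64. MKI67, the Ki-67 antigen, had 127, 139 and 94.8 CPM at 500 µg/mL, against 317, 279 and 265 CPM at 20 µg/mL (log2 -1.25 ± 0.15). CENPF, another kinetochore protein, fell by 1.14, ASPM, a spindle pole protein, by 0.89 and TOP2A by 0.51. UBE2C, an enzyme of mitotic exit, was the 1 higher member (0.15), a call lost without any of 5 libraries, high-dose 2 and 3 and low-dose 1, 2 and 3 (edgeR adjusted p up to 0.116), and CCNB1, CDK1, AURKA and PLK1, chosen here after their values were seen, did not pass. CCND1, cyclin D1, fell by 0.47.

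Within the mitosis list the log2 fold change moved with the adenine share of the transcript, a relation looked for after the data were seen. Adenine made up 41.4% of the CENPE transcript, 36.7% of CENPF and 35.7% of ASPM, against 28.3% of CCNB1, 21.8% of CDC20 and 21.5% of PLK1, and over the 26 genes Spearman's rho between adenine share and log2 fold change was -0.78. Length differed among these genes too. HMMR (36.4% adenine), DLGAP5 (35.3%) and NDC80 (35.2%), chosen after their values were seen, have transcripts of 2172 to 3102 bases and fell by 0.36, 0.25 and 0.23, while MKI67, with 32.9% adenine, had a log2 fold change of -1.25, and the transcripts of CENPE, CENPF, ASPM and MKI67 run to 8612 to 12678 bases. Within the 30 gene lists rho for adenine share ran from -0.78 for mitosis to 0.78 for metallothionein and zinc transport (9 genes). It was -0.62 for p53 targets, -0.59 for heme and iron handling and 0.5 for glutathione and peroxide removal. Over 10670 protein-coding genes with at least 5 CPM rho was -0.26 for adenine share, -0.36 for transcript length and 0.19 for GC share. These are descriptions across genes, which are not independent replicates.

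The 1% of genes richest in adenine, 107 genes with 35.1 to 41.4%, had a median log2 fold change of -0.57, with 87 called lower (81.3%) and 2 higher (1.87%). The 2134 genes with least adenine, 11.4 to 21.2%, had a median of 0.07, with 23.9% higher and 10.9% lower. The 107 genes summed to 3292, 3715 and 3309 CPM at 500 µg/mL, against 5371, 5541 and 5442 CPM at 20 µg/mL, and these groups did not overlap. Named among them after their values were seen, GOLGA4, a Golgi coiled-coil protein, fell by 1.47, AKAP9, a centrosome and Golgi anchor, by 1.41, CEP290, a cilium protein, by 1.40 and EIF5B, a translation initiation factor, by 1.26. For the Astragalus doses the same 107 genes had a median of 0.01, while over all 10670 genes the Astragalus difference gave a rho of -0.20 with adenine share and 0.26 with GC share. The longest 534 transcripts had a median of -0.16 and the shortest transcripts, of 207 to 2270 bases, 0.13. Deviations between replicates also moved with composition: high-dose library 3 less libraries 1 and 2 gave a rho of 0.57 with adenine share and -0.61 with GC share over the same genes. The part of library composition in the mitosis result was not tested.

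**Figure D3:**
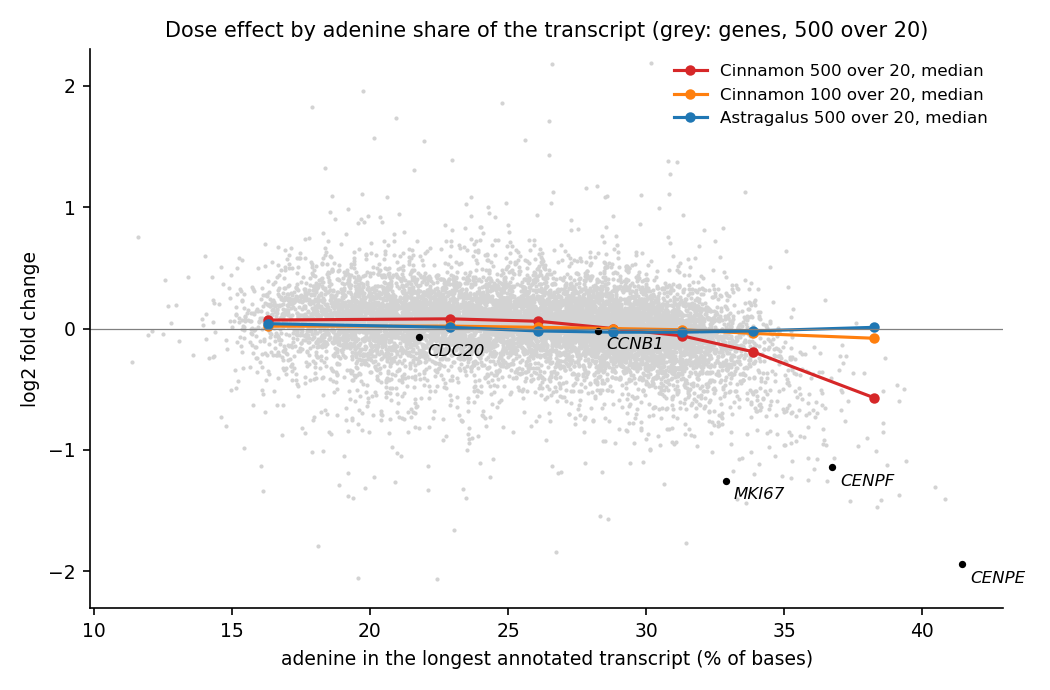
Log2 fold change, 500 over 20 µg/mL, against the adenine share of the transcript (percent) for 10670 protein-coding genes, with 5 mitosis genes named and the median of each bin for cinnamon bark 500 over 20, cinnamon bark 100 over 20 and Astragalus 500 over 20 µg/mL as lines. The first of these medians falls to -0.57 for the 107 genes with 35.1% adenine or more; 2 genes lie outside the plotted range.

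Noncoding transcripts fell more often than they rose. Among genes with at least 1 CPM, 23.1% of 337 long intergenic noncoding genes fell and 10.4% rose, against 16.8% and 17.5% of 12245 protein-coding genes. MEG3, an imprinted noncoding RNA of growth arrest, had 257, 253 and 215 CPM at 500 µg/mL, against 782, 751 and 718 CPM at 20 µg/mL (log2 -1.64 ± 0.08, edgeR adjusted p = 1.17e-12), with no overlap. Transcribed unprocessed pseudogenes fell in 41.9% of 160 cases, and GOLGA8A (-1.57) and GOLGA8B (-1.54), golgin paralogs that share reads with many copies, fell alike. The long intergenic APPAT fell by 2.13. 7SK, the small RNA that restrains transcription elongation, had 7.65, 3.44 and 4.10 CPM at 500 µg/mL, against 2.54, 0.743 and 1.17 CPM at 20 µg/mL (log2 1.77 ± 0.35, edgeR adjusted p = 0.00128), with replicate 1 highest at both doses. It has many near-identical copies in the genome, so its value is uncertain, and the call was lost with only both groups in the fit (edgeR adjusted p = 0.0751). The sources used here do not say whether reads were counted by strand, so antisense and overlapping genes are uncertain too. Among the other large changes, ATP2A3, a calcium pump of the endoplasmic reticulum, had 10.7, 10.1 and 7.74 CPM at 500 µg/mL, against 2.05, 2.34 and 1.80 CPM at 20 µg/mL (log2 2.20 ± 0.18). PADI2, which converts arginine to citrulline in proteins, had 1.61, 1.64 and 1.63 CPM at 500 µg/mL, against 6.15, 6.80 and 7.50 CPM at 20 µg/mL (log2 -2.06 ± 0.12). SAMD11, a nuclear protein, had 18.9, 16.0 and 17.2 CPM at 500 µg/mL, against 66.6, 57.2 and 56.5 CPM at 20 µg/mL (log2 -1.79 ± 0.08).

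The intermediate dose was used to describe the shape of these differences between 20 and 500 µg/mL. Counts of called genes do not place the change of a single gene in either step. The doses are spaced evenly on a log scale, each 5-fold above the one before. The step from 20 to 100 µg/mL called 34 genes (0.204%), 17 higher (0.102%) and 17 lower (0.102%), and 70 with the replicate number as a block. Same-numbered libraries of these doses deviated together, and the part of this in the count was not tested. The step from 100 to 500 µg/mL called 3257 genes, or 19.6% of the genes tested, 1375 higher (8.27%) and 1882 lower (11.3%). Leaving out low-dose library 1, 2 or 3 gave 13, 22 or 9 genes in the first step, and leaving out medium-dose library 2 or 3 gave 7 or 14. Both steps use the 100 µg/mL libraries, so they are given side by side only. The medium dose was therefore also set against the midpoint of high and low on the log2 scale, where a value of 0 means an even slope: 375 genes (2.25%) passed, 265 above the midpoint (1.59%) and 110 below it (0.661%), and 747 with the replicate block. Without medium-dose library 2 or 3, 164 or 226 passed.

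**Figure D4:**
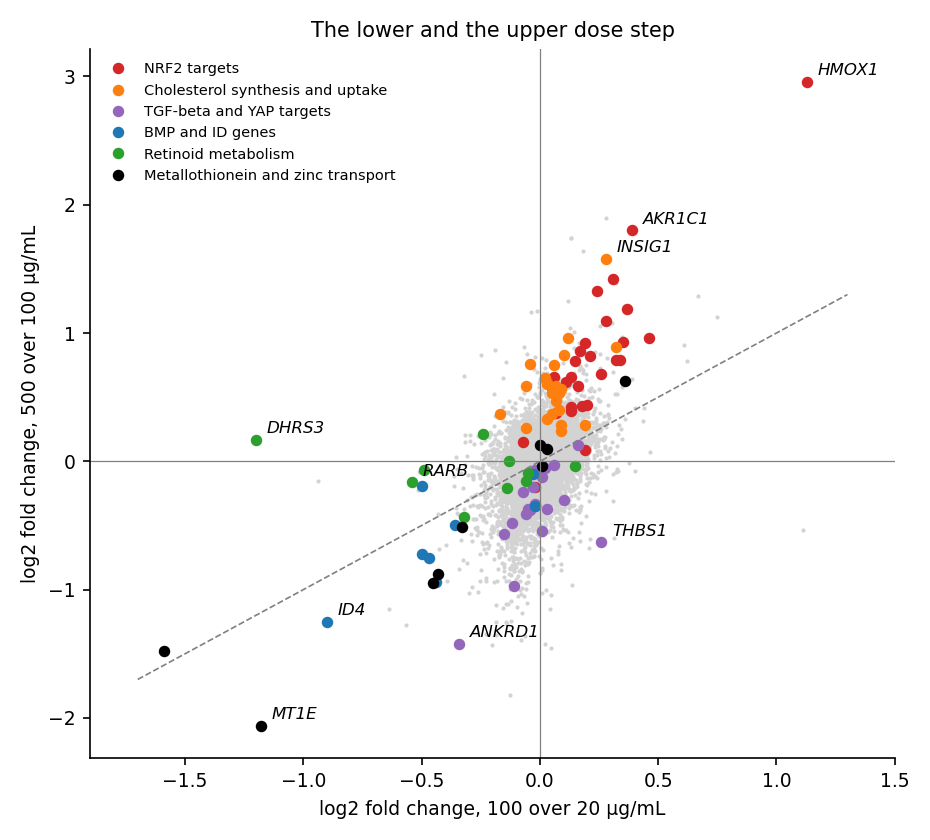
Log2 fold change of the step from 20 to 100 µg/mL (horizontal) against that of the step from 100 to 500 µg/mL (vertical), 1 point per gene, with members of 6 lists coloured, other genes with at least 5 CPM in grey and equal steps as a dashed line. HMOX1 moved by 1.13 in the first step and 2.96 in the second, DHRS3 by -1.20 and 0.17.

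Part of the NRF2 and cholesterol genes lay below an even slope at 100 µg/mL. In the NRF2 list 6 of 30 rose in the first step (median 0.18), 10 with the replicate block, 2 without low-dose library 1 or medium-dose library 2 or 3, and 3 without low-dose library 2 or 3. By the midpoint contrast 14 lay below the midpoint at 100 µg/mL (median -0.25), or 23 with the replicate block, with none above it in either fit. HMOX1 had 86.9, 79.5 and 79.7 CPM at 20 µg/mL, 196, 175 and 167 CPM at 100 µg/mL and 1473, 1376 and 1333 CPM at 500 µg/mL. The medium libraries stood above all low libraries, and the medium mean had covered 27.5% of the log2 distance (midpoint contrast -0.92 ± 0.07, edgeR adjusted p = 1.12e-07). NQO1 had covered 32.5%, and its midpoint contrast of -0.25 did not pass (edgeR adjusted p = 0.133, or 0.00598 with the replicate block). In the cholesterol list the median first step was 0.07, with 0 members called by edgeR, 1 by edgeR with the replicate block, 1 by DESeq2 and 1 at an unadjusted p of 0.05, and 11 of 24 lay below the midpoint. INSIG1 had 154, 156 and 155 CPM at 20 µg/mL, 178, 191 and 198 CPM at 100 µg/mL and 520, 591 and 578 CPM at 500 µg/mL (midpoint contrast -0.65, edgeR adjusted p = 2.17e-07). TM4SF19, a tetraspanin-like membrane protein, had 1.59, 1.67 and 1.13 CPM at 20 µg/mL, 1.39, 1.47 and 1.76 CPM at 100 µg/mL and 5.82, 6.12 and 6.49 CPM at 500 µg/mL, so its first and second groups overlapped.

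MT1E was already lower at the middle dose. MT1E had 18.6, 19.3 and 23.4 CPM at 20 µg/mL, 8.59, 8.91 and 9.55 CPM at 100 µg/mL and 2.03, 2.47 and 2.01 CPM at 500 µg/mL, with the 3 groups apart (first step -1.18, edgeR adjusted p = 1.75e-05). Its midpoint contrast of 0.44 did not pass (edgeR adjusted p = 0.0621, or 0.0128 with the replicate block). The first steps of MT2A (-0.45), MT1X (-0.43) and SLC30A1 (-0.33) did not pass (edgeR adjusted p = 0.133, 0.102 and 0.218). With the replicate block they passed (edgeR adjusted p = 0.0157, 0.00924 and 0.0029). Of the 9 tested members of their list, the block called 4 lower and 1 higher in this step, against 1 and 1 without it. ID2, ID3 and ID4 were called in the first step at -0.47, -0.50 and -0.90, but each call was lost on leaving out at least 1 library: any of the 6 for ID2, medium-dose library 2 for ID3, and low-dose library 1 or 3 or medium-dose library 2 or 3 for ID4 (edgeR adjusted p up to 0.278, 0.0624 and 0.156). ID1 had a first step of -0.44 that did not pass (edgeR adjusted p = 0.0856, or 0.001 with the replicate block). In the midpoint contrast edgeR and DESeq2 called 0 of the 8 BMP and ID genes. There edgeR with the replicate block called ID1, and 2 had an unadjusted p under 0.05.

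Of the retinoid genes, DHRS3 fell within the first step. This enzyme, which reduces retinal to retinol, had 14.9, 17.1 and 17.6 CPM at 20 µg/mL, 6.57, 7.48 and 7.56 CPM at 100 µg/mL and 7.95, 8.17 and 8.20 CPM at 500 µg/mL. Both higher doses lay below the low dose without overlap, with a first step of -1.20 (edgeR adjusted p = 4.98e-08) and a second step of 0.17 that did not pass (edgeR adjusted p = 0.215). Its midpoint contrast was -0.69 (edgeR adjusted p = 2.32e-05), and the first step was called whichever library was left out. RARB (-0.54) and CYP26B1 (-0.49), which degrades retinoic acid, were called in the first step and not in the second (-0.16 and -0.07). Their first-step calls were lost without low-dose library 3 or medium-dose library 2 for RARB, and without low-dose library 1 or 3 or medium-dose library 2 or 3 for CYP26B1 (edgeR adjusted p up to 0.0736 and 0.354). STRA6 differed, with a first step of -0.32 that did not pass and a second step of -0.43 that did, but the first step passed with the replicate block (edgeR adjusted p = 0.00123).

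THBS1, the matrix protein thrombospondin 1, was highest at the middle dose. It had 2040, 1963 and 1929 CPM at 20 µg/mL, 2427, 2370 and 2294 CPM at 100 µg/mL and 1608, 1483 and 1476 CPM at 500 µg/mL. The 3 groups were apart, with a first step of 0.26 (edgeR adjusted p = 0.0344), a second step of -0.63 and a midpoint contrast of 0.45 (edgeR adjusted p = 3.04e-06). The first-step call was lost on leaving out any 1 of the 6 libraries (edgeR adjusted p up to 0.258), and the midpoint call with all groups of the series in the fit (edgeR adjusted p = 0.245). OXTR, the oxytocin receptor, DIO2, which activates thyroid hormone, and PTPRC, the CD45 phosphatase, were called in the second step and not in the first: their second steps were -1.15, -1.04 and -1.45 and their first steps 0.04, 0.05 and 0.05.

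The dose effect of cinnamon bark was tested against that of Astragalus within one model, as a difference of 2 log2 fold changes. The Astragalus libraries at 500 and 20 µg/mL differed in 63 genes (0.379%), 26 higher (0.156%) and 37 lower (0.222%), and in 38 without its high-dose library 2 and 33, 31 or 36 without its low-dose library 1, 2 or 3. The difference between the extracts' dose effects passed for 3532 genes (21.2%), 1603 higher (9.64%) and 1929 lower (11.6%) for cinnamon bark. HMOX1 had 92.7, 81.7 and 79.2 CPM at 500 µg/mL of Astragalus, against 67.3, 63.7 and 65.3 CPM at 20 µg/mL. Its Astragalus change of 0.37 was called (edgeR adjusted p = 0.0324) but lost on leaving out any of 5 of those 6 libraries, all but Astragalus high-dose library 3, and the cinnamon change exceeded it by 3.72 ± 0.11 (edgeR adjusted p = 2.11e-15). INSIG1 fell by 0.61 with the Astragalus dose, and the difference was 2.47 (edgeR adjusted p = 2.18e-14).

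Targets of AHR, the receptor of planar aromatic ligands, differed between the extracts. With cinnamon bark 6 of 9 tested members rose (median 0.40), and with Astragalus 4 fell and none rose. The difference (median 1.49) passed for all 9 by edgeR, 8 by DESeq2 and 7 to 8 with 1 library left out. This list is not separate from the others: NQO1 (1.43) also stands in the NRF2 list and SLC7A5 (0.20) among the ATF4 targets. The SLC7A5 call was lost without high-dose library 1 or 2 or low-dose library 2 or 3 of cinnamon bark (edgeR adjusted p up to 0.155). CYP1B1, a hydroxylase of steroids and aromatic compounds, had 171, 187 and 193 CPM at 500 µg/mL of cinnamon bark, against 128, 141 and 136 CPM at 20 µg/mL (log2 0.44). Under Astragalus it had 59.9, 62.5 and 62.4 CPM at 500 µg/mL, against 127, 128 and 125 CPM at 20 µg/mL (log2 -1.04), and the dose effects differed by 1.49 (edgeR adjusted p = 5.86e-11). MT1E fell with both extracts, by 3.23 with cinnamon bark and by 0.83 with Astragalus, and the falls differed (-2.41, edgeR adjusted p = 1.88e-08). DHRS3 fell by 1.03 with cinnamon bark, and its Astragalus change of -0.38 kept its call only without Astragalus high-dose library 2.

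**Figure D5:**
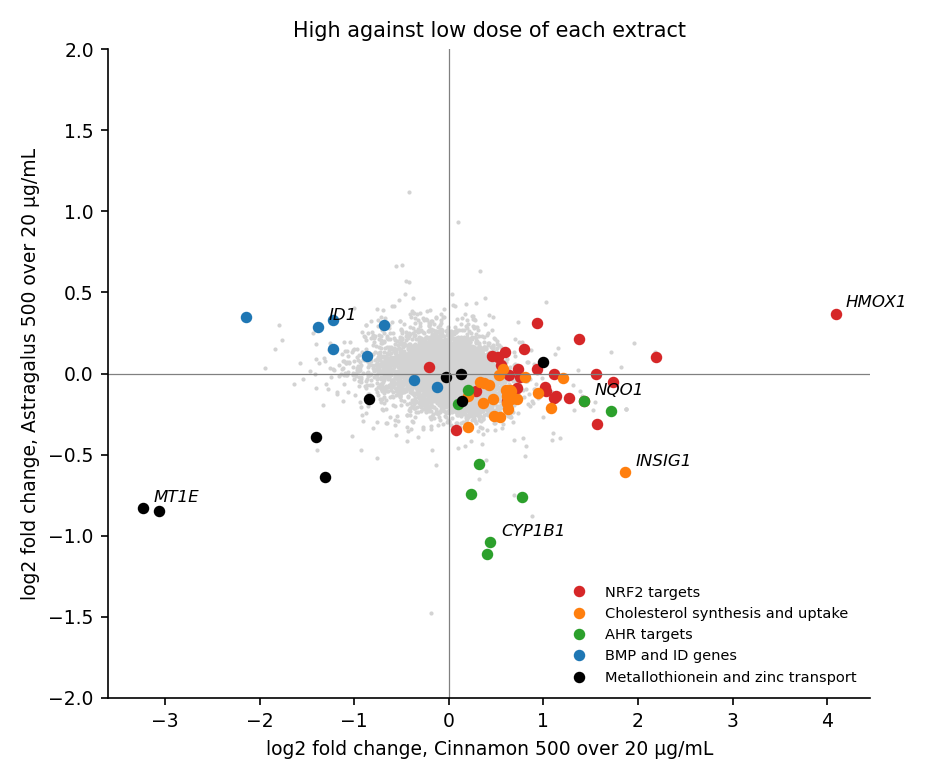
Log2 fold change, 500 over 20 µg/mL, of cinnamon bark (horizontal) and Astragalus (vertical), 1 point per gene, with members of 5 lists coloured and other genes with at least 5 CPM in grey. HMOX1 lies at 4.09 for cinnamon bark and 0.37 for Astragalus, CYP1B1 at 0.44 and -1.04.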

How the data were processed

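RNA of SW1783 cells was sequenced from total RNA (100 bp paired-end) as a directional mRNA library, per the labels' protocols. The authors deposited expected counts per gene; the submitters' processing notes name FastQC 0.11.9, Trim Galore 0.6.5, STAR 2.7.3a, RSEM 1.3.3 and hg38, while no source used here names the annotation release. Of 279 columns of per-sample values 219 belong to no sample described here and were not used. Expected counts were rounded (90.67% were already whole within 1e-09). GENCODE 29 gave gene names, types, positions and transcript composition (longest transcript); RefSeq gave promoters.

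edgeR 4.0.16 (R 4.3.3, limma 3.58.1) fitted the 18 libraries of set 6, 6 groups of 3, with TMM scaling, filterByExpr and the robust quasi-likelihood test, leaving 12 residual degrees of freedom and 16630 genes; p-values were adjusted by Benjamini-Hochberg over all of them and called under 0.05. Set 6 is the first number of the sample names. CPM values use TMM-scaled library sizes. SE is the absolute log2 fold change divided by the square root of F. DESeq2 1.42.0, other fits, filters, scalings, a replicate block and leaving out each library were alternatives. The fit was tested on simulated data.

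Members and gene lists were chosen with earlier results of these data known. Named genes are the 12 largest changes of each direction between high and low dose (mean of at least 5 CPM, groups apart), the 4 largest of each direction per dose step, the 4 smallest p of each sign in the midpoint contrast and the 5 in the interaction, up to 5 called members of each list, members against their list's direction and chosen anchors; clone, locus, pseudogene and antisense names were left out. CCNB1, CDK1, AURKA, PLK1, CDC20, GOLGA4, AKAP9, CEP290, EIF5B and other list members outside this rule were named after their values were seen. Same-numbered libraries deviated together for medium and low dose (correlations 0.39, 0.16 and 0.22) but hardly for high and low (0.05, 0.01 and 0.04). For high and medium dose the correlations were 0.15, 0.03 and 0.12. The main fit did not use the numbers. Some members of the lists are not reported here by name.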

Additional observations from a re-analysis of the deposited data

Results flagged for a closer look

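Each gene here was set apart because its change between 500 and 20 µg/mL differed between cinnamon bark and Astragalus in the interaction test of edgeR, which shares no library between the extracts. The values are cinnamon minus Astragalus on the log2 scale. Cinnamon bark was higher for HMOX1 (3.72, edgeR adjusted p = 2.11e-15), INSIG1 (2.47), AKR1C1 (2.09), SQSTM1 (1.87) and FBXO32 (1.5), a muscle-atrophy ubiquitin ligase that rose by 1.09 with cinnamon bark and changed by -0.41 with Astragalus. Cinnamon bark was lower for SAMD11 (-2.09), MEG3 (-1.57), KRT18 (-1.42), DIO2 (-1.40) and SMC4 (-1.22), a condensin subunit that had 67.5, 71.5 and 67.3 CPM at 500 µg/mL of cinnamon bark, against 142, 149 and 145 CPM at 20 µg/mL. In all 3532 genes passed this test.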

How the results depend on the processing

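Between 500 and 20 µg/mL the count of 4950 genes lay between 3781 with all groups of the series in the fit and 6271 with the same fit less library 1 of the low dose of another extract, Sagunja-tang, and between 4027 and 4381 when 1 library was left out. The step from 100 to 500 µg/mL gave 2289 to 2804 genes with 1 library left out, and the interaction with Astragalus 2562 to 3819. The step from 20 to 100 µg/mL (34 genes) moved most. It gave 20 genes with the 9 cinnamon libraries alone, 12 with only the 2 groups, 21 with all groups, 75 with all groups less the Sagunja-tang library, 70 with the replicate block, 60 with DESeq2's Wald test, 153 without a filter on low counts and 7 to 26 with 1 library left out. The midpoint contrast (375 genes) gave 790 with all groups less the Sagunja-tang library, 747 with the replicate block, 567 without a filter and 164 to 349 with 1 library left out; the cause of these moves was not tested. Between high and low dose 1 of 6 libraries correlated best with its own number, and between high and medium dose 5 of 6. In both the replicate block gave more genes, 6154 against 4950 and 4343 against 3257. Deviations of library 1 moved with GC share in the same direction at all 3 cinnamon doses (rho 0.52, 0.65 and 0.52 at high, medium and low dose). The part of a shared replicate effect in these counts was not tested. For the Astragalus doses the block gave 146 genes, against 63 without it. Of 3541 comparisons of named genes with an alternative 3352 kept direction and call, 176 lost the call, 13 gained it and 0 reversed. By gene, 128 of 171 named results between high and low dose stayed the same under every alternative, and 43 did not under 1 or more. With library size alone the median log2 fold change of all genes was 0.006 between 500 and 20 µg/mL, against -0.006, and 0.003 in the interaction, against -0.011. Counting depth limits genes under 1 CPM most.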
